A study of Mus musculus with 374 samples.

Results

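The comparison set B lymphocytes of mouse bone marrow against the progenitor/stem cells of the same marrow. Its members were the wells labelled as B lymphocytes, in plate rows A and B, and the wells labelled as high-end progenitor/stem cells, in plate rows K to N. Of 44 labelled B lymphocyte wells 43 were used, because well A8 carried granulocyte fluorescence (Gr1 15209, in arbitrary units) and no UMI of a B cell receptor gene. With 95 progenitor/stem wells this made 138 of the 374 cells of the series. All cells came from 1 C57BL/6 female aged 10 to 13 weeks, with no treatment or engineered allele in the labels. B lymphocytes were gated as B220+ with low forward scatter and progenitor/stem cells as Lin- Kit+ Sca1+ (LSK), a gate that holds stem cells and several kinds of early progenitor. Each cell was sorted into its own well of 1 plate of 384 wells, its fluorescence was recorded (index data), and its RNA was counted by CEL-seq2, a 3' method in which a barcode names the cell and a unique molecular identifier (UMI) the molecule. Every population is thus 1 sample of 1 mouse. No test between them was possible, and the 95% intervals given here cover counting error only.

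B lymphocytes arise in the marrow from LSK cells by way of lymphoid progenitors, pro-B cells and pre-B cells. The factors Tcf3, Ebf1 and Pax5 switch on the genes of the B cell receptor, while the recombinases Rag1 and Rag2 join the gene segments of its heavy and light chains. A cell that makes a working receptor becomes an immature B cell with surface IgM, and the mature B cells that recirculate to the marrow carry IgD, more B220 and MHC class II. LSK cells instead carry receptors for stem cell factor and, in part, FLT3 ligand, and transcription factors such as Hlf, Lmo2 and the Hoxa genes.

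The B lymphocytes held 131277 UMIs on mouse genes and the progenitor/stem cells 834812. A B lymphocyte well had a median of 2981 UMIs (485 to 8330) and a progenitor/stem well 7959 (2003 to 24033), and there were 7.42 mouse UMIs for each ERCC spike-in UMI in the former and 18.8 in the latter. Median forward scatter was 73920 against 107000. Levels are in counts per 1000000 UMIs on mouse genes (CPM) of the summed wells. A sum of 3 UMIs, used as a floor for ratios, was 22.9 CPM in the B lymphocytes and 3.59 CPM in the progenitor/stem cells. Well B6, the shallowest, had no B cell receptor UMI, and 3.92% of its UMIs were on granulocyte markers. Well B2 had CD3 fluorescence of 7905 but 61 B cell receptor UMIs and none of 8 T lymphocyte markers. Its forward scatter of 87872 and side scatter of 33280 were the highest of the 43 wells. Whether B2 held more than 1 cell was not tested. Haemoglobin took 2.89% of B lymphocyte UMIs and 1.21% of progenitor/stem UMIs. The part of free RNA in low levels was not tested, so the levels in other sorted cells are given where it bears on a gene.

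The question of the comparison is which transcripts set a B lymphocyte apart from the stem and progenitor compartment. Among 3783 genes with at least 50 UMIs in both populations together, 241 (6.37%) were at least 2-fold higher in the B lymphocytes and 1028 (27.2%) at least 2-fold lower. The median log2 ratio, B lymphocytes over progenitor/stem cells, was -0.43, with quartiles of -1.06 and 0.17. Ranks, counts and list medians set sums under 3 UMIs to 3, while ratios given for single genes use the counts themselves, unless a population had no UMI. Then the ratio is a bound at the floor of 3 UMIs. This offset moved with the scaling. It was -0.14 with scran size factors, which gave 393 genes higher and 759 lower, and -0.24 when the noncoding Gm42418, Mir6240 and the mitochondrial genes were left out of the total, which gave 337 and 823. Gm42418 alone took 22.4% of B lymphocyte UMIs and 13.8% of progenitor/stem UMIs, and the other most counted genes of both populations were mt-Rnr2, Mir6240, the haemoglobin genes Hbb-bs and Hba-a1, and AA474408. Ratios near the offset were therefore read against it.

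The 20 genes with the highest ratios, leaving out genes found in under 25% of wells of the population where they were higher, were, in order, Ly6d, Fcrla, Akap12, Cd79a, Cd74, Cecr2, Vpreb3, Ms4a1, Chst3, Ebf1, Rag1, Irf4, Iglc3, Igkc, Fam129c, Blk, Arl5c, Il7r, Gm30211 and Ighd. The 20 with the lowest were Hlf, Adgrl4, Kit, Cd34, Flt3, Ifitm3, Ramp1, Ctla2a, Prtn3, Gm19590, Gm8292, Adgrg3, Cdk6, Tmem176b, Ifitm1, Iqgap2, Muc13, Nrip1, Pebp1 and Cd27, among them Kit, which defines the LSK gate, and Cd34 and Flt3, which divide its subsets. Of the former 11 and of the latter 10 overlap another annotated gene, as Igkc overlaps Gm30211, and the sources used here do not say whether counting used the strand, so reads of such pairs cannot be told apart. All of the 20 lowest but Gm8292, Cdk6, Iqgap2 and Tmem176b had 3 or fewer UMIs in the B lymphocytes. With the floor at 3 UMIs such genes rank among themselves by their progenitor/stem level only. Likewise Ly6d, Fcrla, Akap12, Ms4a1, Chst3, Ebf1, Irf4 and Iglc3 had 3 or fewer UMIs in the progenitor/stem cells. Among themselves these rank by their B lymphocyte level only. The scatter of levels shows both sets of 20 genes at the edges of a broad diagonal cloud.

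**Figure D1:**
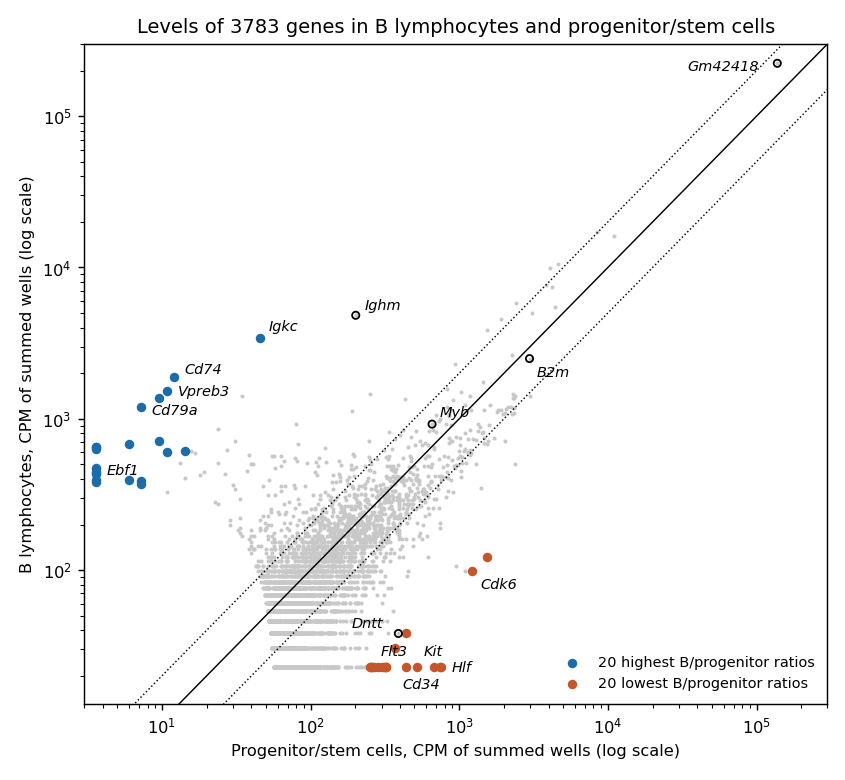
Level of 3783 genes in the summed progenitor/stem wells (x axis, CPM, log scale) and the summed B lymphocyte wells (y axis, CPM, log scale). Sums under 3 UMIs are drawn at 3 UMIs, which lines up points at 22.9 CPM on the y axis and 3.59 CPM on the x axis. The solid line marks equal levels and the dotted lines a 2-fold difference. The 20 genes with the highest ratios (blue) lie far above the lines at under 50 CPM in the progenitor/stem cells, and Ighm and Igkc are the highest labelled B lymphocyte points above the lines.

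Promoter sequences were at hand for part of these genes. RefSeq promoters (build GRCm38.p6, 250 bases before to 50 bases after the annotated start) matched 9 of the 20 highest genes, with 10 promoters, and 18 of the 20 lowest, with 24. Motifs known for B lineage factors were searched on both strands: CAGGTG (an E-box bound by Tcf3), GAGGAA (a core of the PU.1 site), CCCNNGGG (an EBF1 site) and ATGCAAAT (the octamer of Pou2f2). The E-box was in 3 of the 10 promoters of the highest genes and in 20.2% of all 32851 promoters, the PU.1 core in 5 of 10 and 28.3% of all, the EBF1 motif in 1 of 10 and 13.7% of all, and the octamer in 1 of 10 and 1.74% of all. Among the 24 promoters of the lowest genes the counts were 5, 9, 8 and 0 in the same order. With so few promoters these shares are a description. The 250 bases before the start, 5' to 3', are printed here for 4 of the highest genes, because they hold the E-box (Cd79a, Fcrla, Rag1) or the octamer (Vpreb3), and for Kit, the receptor of the LSK gate, with capitals marking motif matches.
Cd79a (chr7:24897247-24897496, forward strand): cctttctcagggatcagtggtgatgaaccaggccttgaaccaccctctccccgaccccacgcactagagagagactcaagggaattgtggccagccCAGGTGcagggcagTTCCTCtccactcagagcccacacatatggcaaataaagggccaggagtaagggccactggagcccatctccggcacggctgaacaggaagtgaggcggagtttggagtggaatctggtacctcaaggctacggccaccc
Fcrla (chr1:170927584-170927833, reverse strand): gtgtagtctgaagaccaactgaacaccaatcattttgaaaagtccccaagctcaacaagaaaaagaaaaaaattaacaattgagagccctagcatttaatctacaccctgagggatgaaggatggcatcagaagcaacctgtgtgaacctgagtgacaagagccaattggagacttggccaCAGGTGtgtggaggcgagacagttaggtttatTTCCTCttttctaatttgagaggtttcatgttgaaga
Rag1 (chr2:101649533-101649782, reverse strand): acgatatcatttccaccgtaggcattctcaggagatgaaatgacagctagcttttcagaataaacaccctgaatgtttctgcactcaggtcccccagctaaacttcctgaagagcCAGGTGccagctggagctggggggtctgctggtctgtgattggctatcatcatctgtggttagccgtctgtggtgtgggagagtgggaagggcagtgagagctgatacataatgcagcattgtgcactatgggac
Vpreb3 (chr10:75948050-75948299, forward strand): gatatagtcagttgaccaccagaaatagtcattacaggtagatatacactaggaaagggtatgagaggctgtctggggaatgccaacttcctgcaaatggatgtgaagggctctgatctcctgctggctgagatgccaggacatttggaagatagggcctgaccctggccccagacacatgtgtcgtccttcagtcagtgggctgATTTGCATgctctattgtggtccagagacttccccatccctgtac
Kit (chr5:75574737-75574986, forward strand): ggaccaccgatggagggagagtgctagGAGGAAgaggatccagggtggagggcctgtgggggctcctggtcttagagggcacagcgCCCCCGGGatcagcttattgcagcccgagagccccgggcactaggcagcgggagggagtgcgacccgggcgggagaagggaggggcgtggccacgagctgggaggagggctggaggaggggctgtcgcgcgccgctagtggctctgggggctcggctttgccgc
The E-box began 154 bases before the start in Cd79a, 69 in Fcrla and 135 in Rag1, followed by a PU.1 core at 140 in Cd79a and 37 in Fcrla. The octamer of Vpreb3 began 45 bases before its start. In Kit a PU.1 core began at 223 and the EBF1 motif at 164. Another RefSeq promoter of Kit, not printed, has a window from 75574741 with these matches at 227 and 168. All distances are from RefSeq starts, which differ from the GENCODE coordinates given below for Cd79a and Kit. None of these matches overlapped another. A match describes the letters of the window and is not a measured binding site.

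All 6 tested chains of the B cell receptor were at least 2-fold higher in the B lymphocytes (6.37% of all genes were), with a median log2 ratio of 5.81. Their 7 genes with a row summed to 12081 CPM (11494 to 12691), against 307 CPM (270 to 347) in the progenitor/stem cells. By well the sum ranged from 0 through a median of 12100 to 28799 CPM in the B lymphocytes, and from 0 through 166 to 1486 CPM in the progenitor/stem cells. All B lymphocyte wells but B6 lay above the highest progenitor/stem well, as the plot of list levels by well shows. Cd79a, a signalling chain of the receptor (chromosome 7, 24897381 to 24902197, GENCODE M21), was at 1188 CPM (1009 to 1390) against 7.19 (2.64 to 15.6), a log2 ratio of 7.37 (6.21 to 8.84). Its well values ran from 0 through 1109 to 4157 CPM in the B lymphocytes and from 0 through 0 to 181 CPM in the progenitor/stem cells. Cd79b, its partner, was at 1417 CPM (1221 to 1636) against 34.7 (23.3 to 49.9), a log2 ratio of 5.35 (4.78 to 5.97), and had a UMI in 42 of 43 and 27 of 95 wells.

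The heavy and light chains differed in how they were spread over the wells. Ighm, the constant region of IgM, was at 4829 CPM (4461 to 5220) against 201 (172 to 234), a log2 ratio of 4.58 (4.34 to 4.84). The Ighm level of the progenitor/stem cells was close to the 215 CPM of thymic T lymphocytes and the 154 CPM of granulocytes, and above the 54.0 CPM of erythroblasts. It was uneven, with 83 of the 168 UMIs in 6 wells of 10 or more. Wells K1 (18 UMIs), L6 (14), K15 (10) and M2 (10) had no UMI of Igkc or Cd79b but 13, 73, 37 and 23 UMIs of Dntt, and M2 also had 1 of Cd79a. Wells M14 (17) and K6 (14) had 5 and 6 UMIs of Igkc, 23 and 8 of Dntt, and haemoglobin at 3.08% and 3.84%. Without the 4 progenitor/stem wells richest in haemoglobin or granulocyte transcripts (K5, K6, L11 and M14) Ighm was at 173 CPM. Igkc, the kappa light chain, was at 3397 CPM (3089 to 3728) against 45.5 (32.2 to 62.5), and the latter was no higher than the 63.0, 69.4 and 59.9 CPM of erythroblasts, granulocytes and T lymphocytes.

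Most B lymphocytes held the kappa light chain, and 2 held high Iglc1 without it. Igkc had a UMI in 39 of 43 wells and 10 or more in 20. Iglc1, a lambda constant region, had 34 UMIs in 9 wells, and 23 of them were in wells A10 (13) and B13 (10), which had no Igkc UMI and 13 and 22 UMIs of Ighm. In A6, A15, A21, B9, B15 and B16 1 to 3 Iglc1 UMIs stood beside 3 to 20 of Igkc. Wells A12 and B6 also had no Igkc UMI, and A12 had 1 of Iglc1 and 24 of Ighm. Iglc3, another lambda constant region whose counts may be split among similar copies, had 50 UMIs in 25 B lymphocyte wells, at most 6 in a well. All of these wells but B13 also held Igkc, as B20 did with 6 UMIs of Iglc3 and 18 of Igkc. Iglc3 had no UMI in the progenitor/stem cells, which makes it at least 106-fold higher in the B lymphocytes. Ighd, the constant region of IgD, was at 609 CPM (483 to 758) against 14.4 (7.43 to 25.1), and it had a UMI in 24 of 43 B lymphocyte wells.

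**Figure D2:**
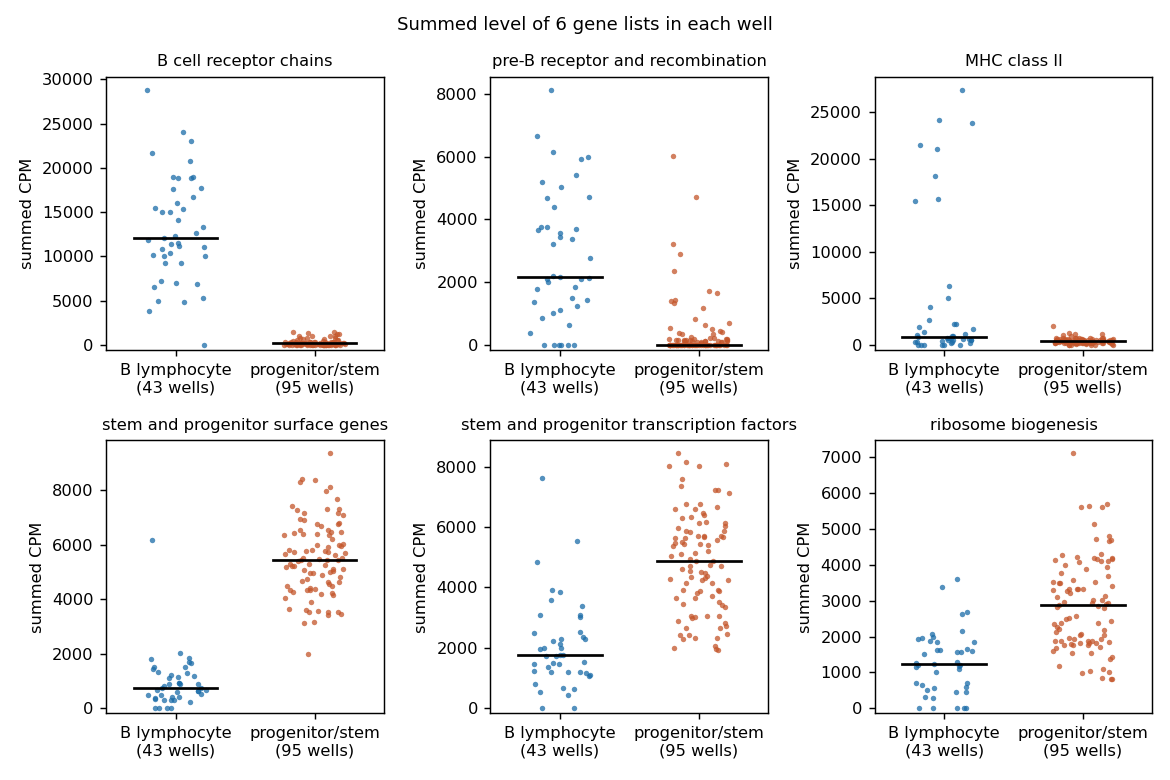
Summed level of 6 gene lists in each well (CPM) for 43 B lymphocyte wells (blue) and 95 progenitor/stem wells (orange), each panel on its own linear axis. Points are wells and black lines medians. B cell receptor chains separate all B lymphocyte wells but 1 from the progenitor/stem wells, while MHC class II is high in a small set of B lymphocyte wells, and pre-B and recombination genes overlap, with Dntt among the genes counted.

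The genes of the pre-B receptor and of recombination pointed both ways. Of 4 tested, 3 were at least 2-fold higher in the B lymphocytes and Dntt was lower, beside 6.37% and 27.2% of all genes. Vpreb3, which binds immature receptor chains inside the cell, was at 1531 CPM (1327 to 1758) against 10.8 (4.93 to 20.5), a log2 ratio of 7.15 (6.20 to 8.30), with wells from 0 through 1355 to 6657 CPM. The 10.8 CPM lay below the 29.7 to 44.9 CPM of the other sorted populations. Rag1, the recombinase subunit, was at 678 CPM (544 to 834) against 5.99 (1.94 to 14.0), and it had a UMI in 24 of 43 wells. Il7r, the receptor of the cytokine that early B and T cells need, was at 389 CPM (289 to 511) against 7.19 (2.64 to 15.6). The surrogate light chain genes of pro-B and early pre-B cells had next to no UMI here, with 2 each of Vpreb1 and Igll1 in the B lymphocytes and 2 and 0 in the progenitor/stem cells, and Rag2 had 4 and 11.

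Dntt, the polymerase that adds bases at the joints of heavy chain segments, was the exception. Its level was 38.1 CPM (12.4 to 88.9), against 389 (348 to 434) in the progenitor/stem cells, a log2 ratio of -3.35 (-4.99 to -2.12). The 38.1 CPM was near the 37.2 CPM of granulocytes. Among the progenitor/stem wells 40 of 95 had a Dntt UMI, the highest had 5785 CPM, and 11 wells with 10 or more UMIs held 254 of the 325.

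Of 10 tested genes of receptor signalling, 7 were at least 2-fold higher in the B lymphocytes and 1 was lower, beside 6.37% and 27.2% of all genes. The median log2 ratio of the 10 was 4.01. Fcrla, an Fc receptor-like protein inside B cells, had 85 UMIs against 2, a log2 ratio of 8.08 (6.18 to 11.15). The adaptor Blnk had a log2 ratio of 4.57 (3.73 to 5.50), the Src-family kinase Blk 6.05 (4.73 to 7.73), and the adaptor Dok3 4.81 (3.89 to 5.85). The kinase Syk, which many blood cells use, was at 1127 CPM (953 to 1324) against 189 (161 to 221), a log2 ratio of 2.57 (2.24 to 2.91). The inhibitory phosphatases Ptpn6 at 0.84 (0.30 to 1.36) and Inpp5d at 0.38 (-0.23 to 0.94) were shared by both populations. The adaptor Dapp1 went the other way, with 1 UMI against 65 (log2 ratio -3.35, interval -8.68 to -0.82).

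B lineage transcription factors formed a graded series. Of 10 tested, 9 were at least 2-fold higher and none lower (6.37% and 27.2% of all genes), with a median log2 ratio of 2.19. Ebf1, the factor that specifies the B lineage (chromosome 11, 44617317 to 45008091), was at 434 CPM (329 to 563) against 3.59 (0.741 to 10.5), a log2 ratio of 6.92 (5.30 to 9.24). Its wells ran from 0 through 336 to 1536 CPM, and 29 of 43 had a UMI against 3 of 95. Irf4, used at the pre-B stage and again in plasma cells, was at 396 CPM (296 to 519) with a log2 ratio of 6.78 (5.16 to 9.11), while Prdm1, the factor of plasma cells, had no UMI in the B lymphocytes. Foxo1, which drives Rag gene expression, had a log2 ratio of 4.04 (3.31 to 4.82). Factors that progenitors already use were closer, with Tcf3 at 2.43 (1.94 to 2.92), Irf8 at 1.95 (1.26 to 2.62), Pou2f2 at 1.70 (0.89 to 2.48), Foxp1 at 1.61 (1.20 to 2.01) and Ikzf1 at 1.18 (0.77 to 1.57). Spi1, which encodes PU.1, was at -0.73 (-1.64 to 0.06). Pax5 could not be judged at this depth, with 2 UMIs in 1 B lymphocyte well and 0 in the progenitor/stem cells.

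Of 8 tested surface and homing genes 6 were at least 2-fold higher and none lower, beside 6.37% and 27.2% of all genes. The median of the 8 was 1.73. Ly6d, an early surface mark of B commitment, had 86 UMIs against 2 (log2 ratio 8.10, 6.20 to 11.16), and Ms4a1, which encodes CD20, had 62 in 17 wells against 1 (8.62, 6.09 to 13.95). The leukocyte tetraspanin Cd37 had a log2 ratio of 2.36 (1.93 to 2.79), and Cxcr4, the marrow homing receptor, 1.71 (1.09 to 2.31). Ptprc, the gene of CD45 whose long isoform is B220, was at 670 CPM (538 to 826) against 502 (455 to 552), a log2 ratio of only 0.42 (0.07 to 0.75), although B220 fluorescence was 358 to 4783 in the B lymphocytes and -87 to 157 in the progenitor/stem cells. Counts at the 3' end do not separate isoforms.

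**Figure D3:**
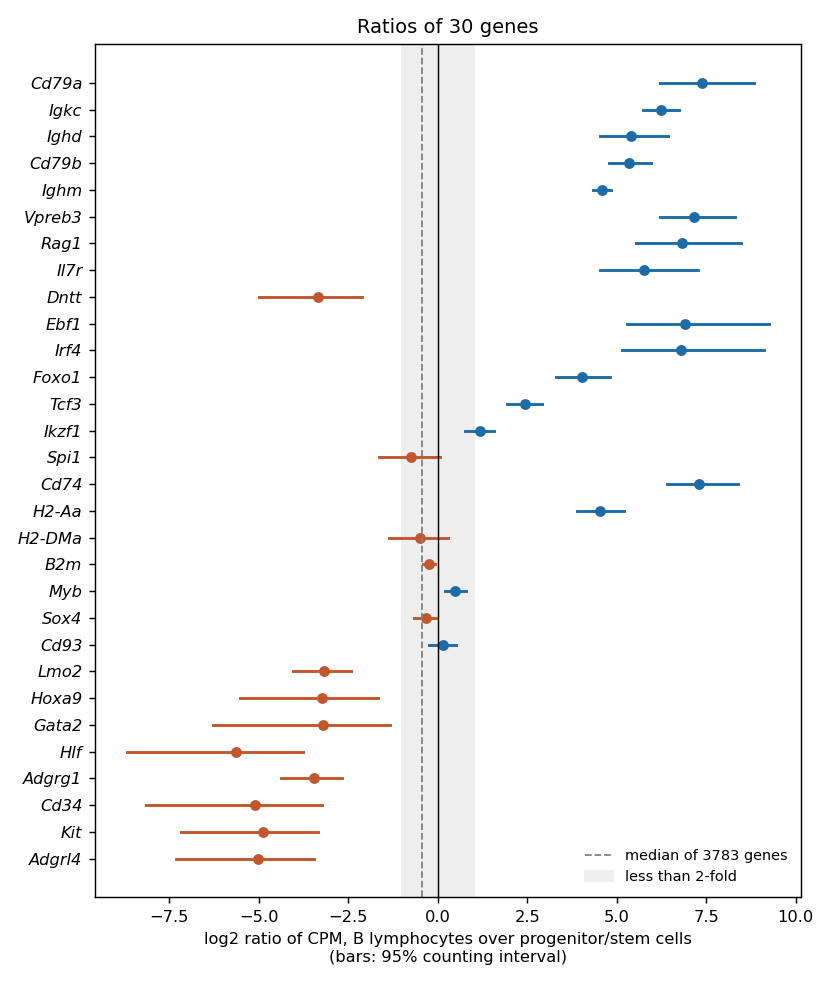
Log2 ratio of CPM, B lymphocytes over progenitor/stem cells (x axis), for 30 genes grouped by role from receptor chains at the top to stem cell genes at the bottom. Points are ratios and bars their 95% counting intervals. The grey band spans ratios of less than 2-fold and the dashed line is the median of 3783 genes. Receptor chains and recombination genes other than Dntt lie between 4.58 and 7.37. Myb, Sox4 and Cd93 lie inside the band, and Kit, Cd34, Hlf and Adgrl4 lie between -5.63 and -4.89.

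MHC class II, with which mature B cells present antigen, divided the B lymphocytes among themselves. Of 6 tested genes 4 were at least 2-fold higher than in the progenitor/stem cells (6.37% of all genes were), with a median log2 ratio of 3.94. Without the 8 wells of B220 fluorescence above 2000 the median was 0.91. It covers only the members that still met the UMI filter, so the medians need not cover the same genes. The summed list of the remaining wells had a log2 ratio of 1.65 over the progenitor/stem cells. Cd74, the invariant chain, was at 1882 CPM (1654 to 2131) against 12.0 (5.74 to 22.0), yet only 25 of 43 wells had a UMI, and values ran from 0 through 294 to 11550 CPM. The chains H2-Aa, H2-Ab1 and H2-Eb1 had log2 ratios of 4.52 (3.88 to 5.21), 3.35 (2.80 to 3.92) and 5.28 (4.34 to 6.34), with UMIs in 17, 15 and 15 B lymphocyte wells. H2-DMa, a peptide loading chain, was at -0.49 (-1.37 to 0.28) and was found in 70 of 95 progenitor/stem wells.

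The fluorescence recorded at the sort separated these wells without use of their transcripts. In 8 B lymphocyte wells B220 was 2458 to 4783, and in the other 35 it was 358 to 1718. Of the 8, 7 also had Sca-1 fluorescence of 2858 to 13448, while in the other 35 only B2 exceeded 2000, at 2839. Median CD44 was 1108.5 in the 8 and 1975 in the 35, and median forward scatter was 71712 and 74880. Gr1 was also higher, at a median of 146 (41 to 872) in the 8 and 19 (-32 to 181) in the 35. So was Ter119, at 89.5 (59 to 188) and 19 (-26 to 82). Median CD3 was 241 and 62, Mac1 20.5 and 15, and c-Kit 7 and 23. The source of these differences in fluorescence was not tested. The 8 wells held 20494 UMIs and the 35 held 110783. Summed MHC class II was 19908 CPM in the 8 and 1336 CPM in the 35, a log2 ratio of 3.90 (3.62 to 4.18). By well it was 6303 to 27397 CPM in the 8 (median 21282) and 0 to 18099 CPM in the 35 (median 613), so the groups overlapped. The overlap came from B2 at 18099 CPM, and the other 34 wells had at most 5047 CPM. Without B2, left out with its value known, the log2 ratio was 4.43. Splitting by Sca-1 above 2000 in place of B220, which exchanges A21 for B2, gave 3.90. The plot of B220 against list levels shows the 8 wells and B2 standing apart.

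**Figure D4:**
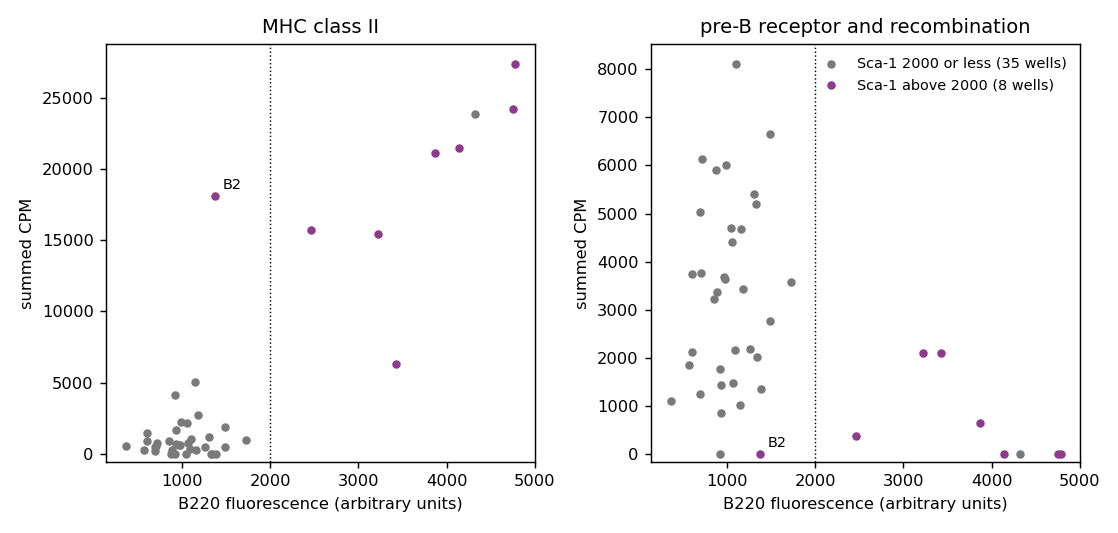
B220 fluorescence at the sort (x axis, arbitrary units) against the summed level of MHC class II genes (left) and of pre-B receptor and recombination genes (right) in 43 B lymphocyte wells (y axes, CPM). The dotted line is a B220 fluorescence of 2000 and colour gives Sca-1 fluorescence. The 8 wells right of the line and B2 have at least 6303 CPM of MHC class II, and the highest pre-B levels lie left of the line.

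Among 984 genes with at least 20 UMIs in the B lymphocytes, 99 (10.1%) were at least 2-fold higher in the B220-high wells and 106 (10.8%) at least 2-fold lower. All 5 MHC class II genes tested were higher, against that background. Cd74 had 180 UMIs in the 8 wells and 67 in the 35, a log2 ratio of 3.86 (3.45 to 4.29). Ighd had 55 and 25, a log2 ratio of 3.57 (2.87 to 4.32), with 8, 17, 15, 5, 5, 1, 1 and 3 UMIs in wells A6, A14, A19, A21, B10, B16, B20 and B23. Ighm did not follow Ighd, at 4001 CPM and 4983 CPM (log2 ratio -0.32, -0.67 to 0.02). Of 11 surface and homing genes tested 5 were higher and 1 lower. Cd52 was at 1.43 (0.64 to 2.19) and Ptprc at 1.18 (0.46 to 1.86), and Cxcr4 had 0 UMIs in the 8 wells and 36 in the 35 (log2 ratio of -1.15 or lower at the floor). Ly6a, the gene of Sca-1, had 5 UMIs in the 8 wells and 4 in the 35, a log2 ratio of 2.76 (0.54 to 5.09).

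The 3 tested genes of the pre-B receptor and recombination were at least 2-fold lower in the B220-high wells, beside 10.8% of all genes tested there. The whole list summed to 586 CPM in the 8 and 3087 CPM in the 35, a log2 ratio of -2.40 (-3.37 to -1.57), and 4 of the 8 wells had no UMI of it. Vpreb3 had 4 and 197 UMIs (-3.19, -5.08 to -1.81) and Rag1 had 3 and 86 (-2.41, -4.71 to -0.81), and A19 alone held 3 and 2 of the 4 and 3. Irf4 had 2 and 50 UMIs, Fam129c 2 and 91, and the bromodomain gene Cecr2 4 and 176. Syk was at 244 CPM and 1291 CPM (-2.40, -4.05 to -1.15). Ebf1 had 5 and 52 UMIs (-0.94, -2.63 to 0.37), and Cd79b was at -0.32 (-1.00 to 0.30), and both intervals span 0. The summed erythroblast markers had a log2 ratio of 0.51 (0.40 to 0.62) between the 8 wells and the 35, and their part in these differences was not tested. Of its 7 members Alas2 and Slc4a1 were at least 2-fold higher in the 8 wells, Car2 was at least 2-fold lower, and the haemoglobin genes lay between, at 0.30 to 0.56.

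The genes that mark stem and progenitor cells were the other pole. Of 13 tested surface genes 11 were at least 2-fold lower in the B lymphocytes and none higher, beside 27.2% and 6.37% of all genes. The median log2 ratio of the 13, -3.46, was the value of Cd27. As Cd27 had no UMI in the B lymphocytes, this median is set by the floor of 3 UMIs and is a bound. The list summed to 838 CPM (689 to 1010) against 5298 (5143 to 5457). Progenitor/stem wells ran from 1997 through 5453 to 9354 CPM and B lymphocyte wells from 0 through 759 to 6186 CPM, the last being well B6 with 3 UMIs. Kit, the stem cell factor receptor used in the gate (chromosome 5, 75574916 to 75656722), was at 22.9 CPM (4.71 to 66.8) against 677 (622 to 735), a log2 ratio of -4.89 (-7.17 to -3.33), and it had a UMI in 3 of 43 and 93 of 95 wells. Cd34, a sialomucin of progenitors, had 2 UMIs against 434 (-5.09, -8.14 to -3.23). Flt3, the receptor of lymphoid-primed progenitors, had 0 against 367, in 75 of 95 wells, and was at least 19.2-fold lower in the B lymphocytes. Cd27 and Ifitm1 also had none, which makes them at least 11.0-fold and 11.6-fold lower. The adhesion receptors Adgrl4 and Adgrg1 were at -5.02 (-7.30 to -3.47) and -3.45 (-4.37 to -2.67). The other sorted populations had 24.0 to 39.9 CPM of Kit, so the 22.9 CPM of the B lymphocytes was not above them. Ly6a, although Sca-1 is part of the gate, was at 68.6 CPM (31.4 to 130) against 79.1 (61.1 to 101).

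Of 12 tested stem and progenitor transcription factors 9 were at least 2-fold lower and none higher, beside 27.2% and 6.37% of all genes. The median of the 12 was -1.48. Hlf, a factor of stem cells (chromosome 11, 90336536 to 90390895), had 2 UMIs against 628, which is 15.2 CPM (1.84 to 55.0) against 752 (695 to 814) and a log2 ratio of -5.63 (-8.67 to -3.77). Progenitor/stem wells ran from 0 through 673 to 3356 CPM of Hlf, with a UMI in 89 of 95. Lmo2, a bridging protein of the stem cell complex, was at -3.16 (-4.04 to -2.41), Hoxa9 at -3.23 (-5.52 to -1.66) and Gata2 at -3.21 (-6.28 to -1.33). The genes of early myeloid and megakaryocyte priming followed, with 7 of 10 lower, 1 higher (Irf8) and a median of -1.74. Mpo, the granule peroxidase, had 2 UMIs against 193, and Prtn3, a granule protease, 2 against 259. Cdk6, the kinase that lets stem cells enter the cycle, was at 99.0 CPM (52.7 to 169) against 1212 (1139 to 1289), a log2 ratio of -3.61 (-4.53 to -2.83).

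A few progenitor genes were held in common. Myb, needed by progenitors of all lineages and by pro-B cells, was at 922 CPM (765 to 1101) against 656 (603 to 714), a log2 ratio of 0.49 (0.19 to 0.78). Sox4 was at 708 CPM (572 to 868) against 886 (824 to 953), and Cd93, a marker of both LSK cells and immature B cells, at 526 CPM (409 to 665) against 473 (428 to 522). Within the B lymphocytes all 3 lay in the wells of lower B220. Myb had 2 UMIs in the 8 B220-high wells and 119 in the other 35 (log2 ratio -3.46, -6.52 to -1.58), Sox4 1 and 92 (-4.09, -9.41 to -1.58), and Cd93 1 and 68 (-3.65, -8.98 to -1.13). Over the progenitor/stem cells the 35 wells were at 0.71 (0.41 to 1.00) for Myb, -0.09 (-0.42 to 0.22) for Sox4 and 0.38 (-0.02 to 0.75) for Cd93.

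**Figure D5:**
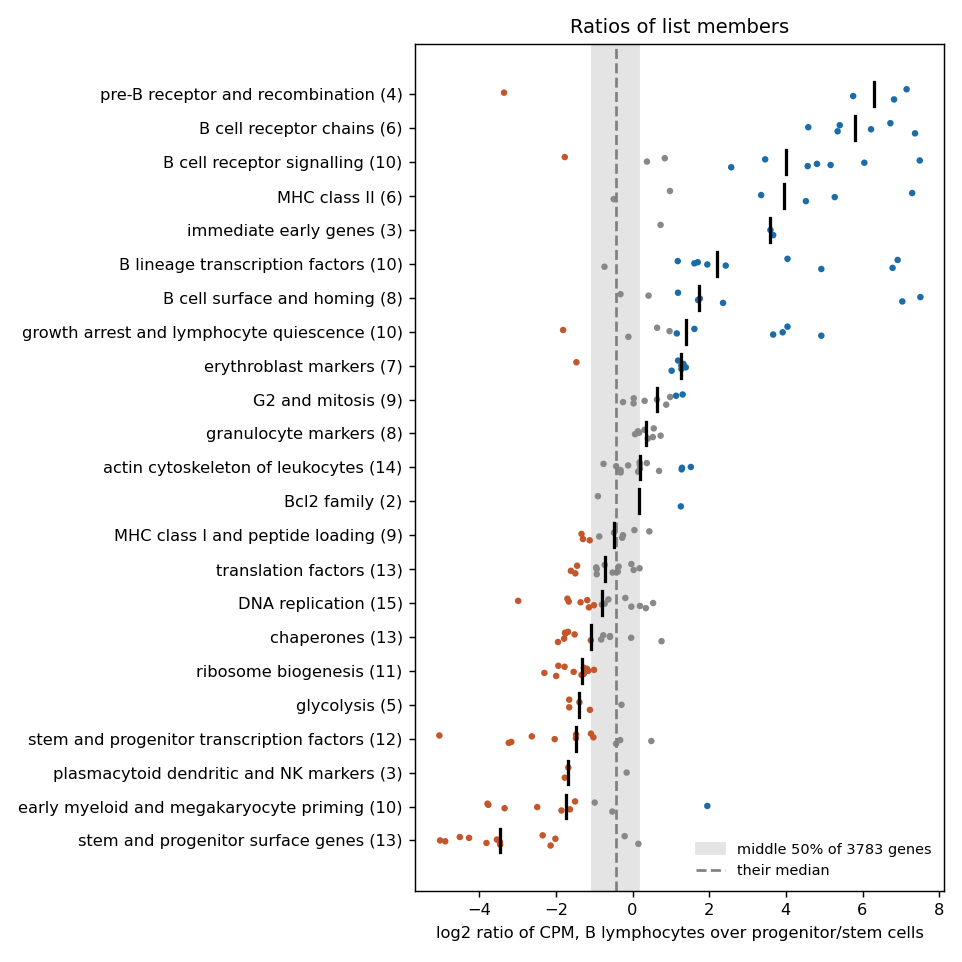
Log2 ratio of CPM, B lymphocytes over progenitor/stem cells (x axis), of the tested members of 23 gene lists, with the number of members in brackets. Points are genes (blue at least 2-fold higher, orange at least 2-fold lower, grey between) and black bars list medians. The grey band spans the quartiles of 3783 genes and the dashed line their median. B lineage lists have medians of 1.73 to 6.29, and the medians of the stem, priming, glycolysis and ribosome biogenesis lists lie left of the band.

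Genes of ribosome biogenesis, chaperones and glycolysis had medians below the offset of all genes. All 11 tested genes of ribosome biogenesis were at least 2-fold lower, with a median of -1.33, against the 27.2% of all genes. Npm1, the nucleolar chaperone of ribosome assembly, was at 449 CPM (342 to 580) against 1024 (957 to 1095), with a UMI in 23 of 43 and 91 of 95 wells, and Ncl, which encodes nucleolin, was at -1.33 (-1.95 to -0.77). Chaperones had 7 of 13 lower and a median of -1.09, with Hsp90ab1 at 716 CPM (579 to 876) against 2042 (1947 to 2142). Glycolysis genes had 4 of 5 lower with a median of -1.39. Translation factors had 3 of 13 lower, a share below that of all genes, and a median of -0.73, with Eef2 at -0.36 (-0.62 to -0.12) and Pabpc1 at -0.73 (-0.95 to -0.51). None of these 4 lists had a member at least 2-fold higher. MHC class I genes, which nearly all cells express, had a median of -0.48 with 3 of 9 lower, and B2m was at 2499 CPM (2235 to 2784) against 2970 (2854 to 3089).

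In the B lymphocytes, a few wells held a large part of the cell cycle UMIs. Of 15 tested DNA replication genes 7 were at least 2-fold lower and none higher (median -0.80), beside 27.2% and 6.37% of all genes, with Mcm5, a subunit of the replicative helicase, at 3 UMIs against 151. Of 9 genes of G2 and mitosis 2 were higher and none lower (median 0.64), and Mki67, a marker of cycling cells, was at 785 CPM (640 to 952) against 398 (356 to 443). In the B lymphocytes 3 wells (A4, A11 and B21) held 151 of the 316 UMIs of the G2 and mitosis list (47.8%), where the top 3 progenitor/stem wells held 26.5%. Without them its level was 1441 CPM, against 1200 CPM in the progenitor/stem cells without their own top 3. Likewise 3 wells (A11, B18 and B21) held 101 of 210 UMIs of the replication list (48.1%), against 16.4% in the top 3 progenitor/stem wells, and the rest were at 906 CPM against 2391 CPM. These shares are not on an equal footing, as 3 wells are more of 43 than of 95, and ranking by UMIs favours deep wells. For G2 and mitosis 7 of 43 B lymphocyte wells (16.3%) and 6 of 95 progenitor/stem wells (6.32%) exceeded 5000 CPM. For replication 3 of 43 (6.98%) and 10 of 95 (10.5%) did.

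Of 10 tested genes of growth arrest and lymphocyte quiescence, 6 were at least 2-fold higher and 1 lower (6.37% and 27.2% of all genes), with a median of 1.38. When every well was thinned to 1500 UMIs the median was -0.062, over only the members that still had 50 UMIs, so the 2 medians need not cover the same genes. Klf2, which holds naive lymphocytes at rest, was at 328 CPM (237 to 441) against 10.8 (4.93 to 20.5), and the antiproliferative genes Btg1 and Btg2 were at 3.92 (3.30 to 4.56) and 3.67 (3.05 to 4.32). Granulocytes and T lymphocytes had 164 and 230 CPM of Klf2. Txnip, an inhibitor of glucose uptake, was the exception at -1.81 (-2.52 to -1.18). Only 3 immediate early genes reached 50 UMIs, and 2 of them, Btg2 and Jund, were higher. Btg2 is a member of the quiescence list too. Klf2, Foxo1 and Foxp1 of the quiescence list are also members of the list of B lineage transcription factors. The counts of these lists are therefore not separate results. Leukocyte actin genes had 3 of 14 higher and none lower (6.37% and 27.2% of all genes) and a median of 0.19. Among them Tmsb4x was at 1.29 (1.09 to 1.48) and Rac2 at 1.28 (0.95 to 1.61). Of the Bcl2 family only Mcl1 (1.26) and Bcl2 (-0.90) were tested.

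Markers of other cells were measured beside these results. All 8 granulocyte markers were tested and none differed by 2-fold (median 0.36, summed 2971 CPM against 2289 CPM, and 151626 CPM in granulocytes). Of 7 erythroblast markers 6 were at least 2-fold higher in the B lymphocytes (6.37% of all genes were) and Car2, which progenitors also use, was lower. Their sum was 29761 CPM against 13280 CPM, with wells from 6242 to 185567 CPM in the B lymphocytes and from 5936 to 168983 CPM in the progenitor/stem cells. The 8 T lymphocyte markers had 10 UMIs against 40 in all, Cd3g none in either population. Of 6 plasmacytoid dendritic and NK cell markers, Siglech and Il2rb had no UMI, and Bst2, Nkg7 and Klrd1 had 0 against 65, 61 and 2. The sixth, Tcf4, a factor B cells also use, held all 40 B lymphocyte UMIs of the list, against 283 (log2 ratio -0.15, -0.67 to 0.33). Of the monocyte and macrophage list only Lyz2 was tested (-0.58), and C1qb had no UMI.

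Wells were also compared at equal depth, after thinning each to 1500 UMIs, which left out 3 B lymphocyte wells and no progenitor/stem well. The median number of genes found was 857 (642 to 1008) in the B lymphocytes and 998 (728 to 1107) in the progenitor/stem cells, where without thinning it was 1429 and 3358. Cd79a had a UMI in 77.5% and 2.11% of thinned wells, Ighm in 100% and 14.7%, Vpreb3 in 82.5% and 0%, and Ebf1 in 42.5% and 1.05%. Kit had one in 2.50% and 62.1%, Hlf in 0% and 66.3%, and Cd34 in 0% and 52.6%. Myb had one in 62.5% and 61.1%. Unthinned, Cd79a was found in 90.7% and 5.26% of wells, Kit in 6.98% and 97.9%, and Myb in 76.7% and 94.7%. In granulocytes, which should lack Cd79a and Kit, a UMI was found in 1.04% and 12.5% of wells.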

How the data were processed

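Single cells from the marrow of 1 mouse were sequenced by CEL-seq2. The authors made the deposited UMI counts with scPipe, which aligns reads with Rsubread unless another aligner is chosen, assigns them to exons, splits them by designed cell barcodes and collapses UMIs. Not given in the sources used here: aligner version, genome build, annotation and strand setting of the counting. The labels describe the places of barcode and UMI in read 1 in contradictory ways, and counts were used as deposited. Transcripts were tagged at the 3' end, so isoforms are not resolved. In the table, 9 columns matched no sample and were not used.

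Counts of mouse genes, without ERCC, were summed over wells and divided by the total (CPM). Exact Poisson intervals for sums and exact conditional binomial intervals for ratios (95%) cover counting error only. Genes with at least 50 UMIs in both populations together were compared (20 UMIs within the B lymphocytes). The sort was for 1 cell per well. No doublet caller was run, so wells that took up more than 1 cell were not looked for. Each population is 1 sample, so no test was made. The members and the 26 gene lists were chosen with earlier results of these data known. Of 344 list genes 24 were not analysed here. Some genes, such as Irf8, are members of several lists and count in each. Some further list members are counted but not reported by name here. Named genes were the 20 highest and 20 lowest ratios (genes under 25% of wells in the population with the higher level were passed over), the 5 genes most counted in each population, list members and the genes of the gate antigens. Single wells were picked after their values were seen. B lymphocytes were also split at a B220 fluorescence of 2000, a value chosen with the fluorescence known. Gene symbols and coordinates are from GENCODE M21 (GRCm38), promoters from RefSeq (GRCm38.p6). Python 3.11.15, numpy 2.4.6, pandas 2.3.3, scipy 1.17.1 and R 4.3.3 were used, with scran 1.30.0 for size factors and edgeR 4.0.16 for the TMM factor of an alternative. Scripts were tested on simulated data.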

Additional observations from a re-analysis of the deposited data

Results flagged for a closer look

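Well A8, labelled as a B lymphocyte, lies outside the comparison and carried a signal above that of the other wells of its label. Granulocyte markers took 11.5% of its 4531 UMIs, against at most 3.92% in the B lymphocyte wells used (well B6). It had 0 UMIs of B cell markers, and its Gr1 fluorescence was 15209. With A8 added, none of the list medians reversed.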

How the results depend on the processing

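Counts of genes depended on the filter, the depth and the scaling. The 241 genes at least 2-fold higher became 393 with scran size factors, 46 with wells thinned to 1500 UMIs, 543 at 20 UMIs, 99 at 100 UMIs, 8949 with no filter and 91 at 4-fold. The 1028 lower became 635 with plate row B only, 110 after thinning, 500 with progenitor rows K and L, 501 with rows M and N, 449 at 100 UMIs and 198 at 4-fold. Fewer UMIs or another filter change the genes tested (7280 at 20 UMIs, 1753 at 100, 17580 with no filter), while for the scaling the cause was not tested. The share of genes lower changed too, from 27.2% to 17.9% with plate row B only and 20.9% after thinning. It was 23.9% to 25.6% with the progenitor row pairs and at 100 UMIs. With fewer B lymphocyte UMIs the floor of 3 UMIs stands at a higher CPM, and its part in these shares was not tested. With no filter, genes of 3 or fewer UMIs in each population all sit at the floor, at 22.9 against 3.59 CPM. Such genes are counted as higher whatever their level, and they raise the median. The median log2 ratio of -0.43 became -0.14 with scran, -0.24 without Gm42418, Mir6240 and mitochondrial genes, -0.29 at 20 UMIs and 1.08 with no filter. Leaving out each well in turn gave 233 to 248 higher, 986 to 1056 lower and medians of -0.45 to -0.41. For the B220 split, alternatives chosen after seeing the data gave an MHC class II log2 ratio of 4.43 without B2 and 3.77 to 4.43 leaving out each well, and -3.18 to -2.05 for the pre-B list. Directions turned for the quiescence list (median -0.062) after thinning, Cdkn2d (-0.078) with plate row A only and Nop10 (0.18) with scran. The cause was not tested. The ratios of Eef1b2 (0.51), Itga2b (0.026) and Tal1 (0.51) also turned after thinning, where low sums are set to the floor. Eef1b2 and Tal1 had the same ratio, as genes with few UMIs left can. The thinned ratios of Eef1b2, Itga2b and Tal1 were therefore not read as a direction. Of 4686 values of 213 named genes, 4459 stayed within the counting interval, 222 left it and 5 reversed. List medians moved more often: of 543 values 339 stayed within the counting spread, 203 moved beyond it and 1 reversed, and of 40 shares of wells with a UMI 24 stayed and 16 moved. No paired analysis was possible because every population is 1 sample.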
